A study of Mus musculus with 2 samples.

Results

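The PRAME-like genes are a mouse family named after human PRAME, a tumour antigen. Their products are built of leucine-rich repeats, and human PRAME serves as the substrate-recognition part of CUL2 ubiquitin ligases, enzymes that mark proteins for degradation. Mouse PRAME-like proteins are best known from oocytes, the testis, the early embryo and mouse embryonic stem cells (mESCs). PRAMEL7 acts there with CUL2 to remove UHRF1, the protein that guides the maintenance DNA methyltransferase DNMT1 to replicated DNA. Expression of Pramel6 and Pramel7 in mESCs is tied to the cytokine LIF and its transcription factor STAT3.

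The 7 autosomal genes described were Pramef12, Pramef8, Pramel7, Pramel6, Gm13083, Pramel5 and Pramel4, of 43629 genes with a count. They were identified through their Ensembl identifiers, and were chosen by symbol with the counts of these libraries in view, so their levels and ratios are a description. RNA was sequenced in 2 libraries of Dicer_KO mESCs, which lack the RNase that makes mature miRNAs and siRNAs. Both carry the Dicer knockout genotype in cells of the 129/Ola background derived from a blastocyst. Replicate 1 was at passage 7 and replicate 2 at passage 4. The mutants were made from E14TG2a cells with paired CRISPR/Cas9 cuts, sorted as single cells and routinely grown in serum with LIF. The study made 2 different deletions, each isolated as clones, and the labels do not say which library carries which, so clone, deletion and passage cannot be told apart between the libraries. Wild-type libraries were not analysed here. No comparison between genotypes was made, and differences between the libraries carry no p-value. Fewer expressing cells and less RNA per cell cannot be told apart in such bulk samples.

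The libraries held 41710122 and 41566184 counts on genes, in replicates 1 and 2. Dicer1 itself, the targeted gene, kept 1343 and 1510 counts. Gene counts alone do not show whether the deleted exons were read. From its RNA sequencing, the study reports loss of Dicer mRNA in both mutants. It also reports no DICER protein and no mature form of the miRNAs it probed. All 10 mESC markers examined had at least 10 counts, with 39069 and 43025 for Pou5f1, and their summed level was 10022 and 6428 CPM (a gene's counts scaled to the library's total on genes), of which Dppa5a gave 4792 and 2041. Of 6 markers of fibroblast feeders, Postn had 0 counts in both libraries, and the sum of 20.4 and 15.4 CPM was mostly Thy1 (19.7 and 14.9 CPM). The 4 markers of primitive endoderm summed to 16.0 CPM in replicate 1 and 8.42 CPM in replicate 2. Most of that was Gata4 (14.0 and 7.65 CPM), which was less than 2-fold apart. Dab2 (52 and 17 counts) and Gata6 (16 and 5 counts) were more than 2-fold higher in replicate 1. Gata6 reached a mean of 10 counts through replicate 1 alone. Of all genes with that mean, 21.4% lay past 2-fold in either direction. The 5 markers of other differentiated cells summed to 46.8 and 51.0 CPM, of which Nes gave 42.5 and 44.6 CPM. Fgf5 (9 and 20 counts) was more than 2-fold higher in replicate 2, and Pax6 had 164 and 246 counts. The part of these differences in the values below was not tested.

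The upstream sequences of 6 of the 7 genes were taken from RefSeq (build GRCm38.p6), Pramef8 having no entry in the table used. Pramel4 and Pramel5 are shown first because their sequences are nearly the same while their counts are not. The Pramel4 count is uncertain, since 87.1% of the 100-base stretches of its transcript have a copy in another gene. The sequences are the 250 bases before each start site, read 5′ to 3′. Capitals mark the 30 bases in each that had no identical partner in the other. They include unaligned bases, such as the last stretch of Pramel5, which lies inside the GENCODE span of that gene. Of 230 aligned bases, 220 were identical (95.7%).
Pramel4 (chr4:144058875-144059124, plus strand): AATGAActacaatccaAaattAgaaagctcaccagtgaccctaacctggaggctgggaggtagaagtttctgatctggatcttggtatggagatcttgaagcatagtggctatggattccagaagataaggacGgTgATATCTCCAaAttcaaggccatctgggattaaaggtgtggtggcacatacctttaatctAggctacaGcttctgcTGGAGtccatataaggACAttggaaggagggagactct
Pramel5 (chr4:144280467-144280716, minus strand): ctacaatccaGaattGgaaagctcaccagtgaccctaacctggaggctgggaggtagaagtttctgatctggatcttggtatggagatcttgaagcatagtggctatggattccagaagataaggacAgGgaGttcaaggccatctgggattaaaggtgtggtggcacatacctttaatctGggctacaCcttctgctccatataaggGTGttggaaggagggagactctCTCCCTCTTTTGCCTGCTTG

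The next 3 are the 150 bases before the start sites of Pramef12, the gene with the most counts, and of Pramel6 and Gm13083, the genes furthest apart between the libraries. Capitals mark CCAAT or, for the other strand, ATTGG.
Pramef12 (chr4:144408465-144408614, minus strand): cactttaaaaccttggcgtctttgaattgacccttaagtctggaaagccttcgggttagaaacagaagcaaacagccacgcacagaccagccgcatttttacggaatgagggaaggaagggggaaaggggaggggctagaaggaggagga
Pramel6 (chr2:87506415-87506564, plus strand): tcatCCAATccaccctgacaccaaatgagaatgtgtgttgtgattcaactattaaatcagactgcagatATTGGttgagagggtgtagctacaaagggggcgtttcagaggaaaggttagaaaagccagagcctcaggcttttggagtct
Gm13083 (chr4:143614853-143615002, plus strand): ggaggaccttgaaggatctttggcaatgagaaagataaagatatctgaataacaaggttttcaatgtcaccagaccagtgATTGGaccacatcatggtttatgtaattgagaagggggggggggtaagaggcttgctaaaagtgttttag

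CCAAT, a box bound by the factor NF-Y in many promoters, was searched for on both strands of the 250 bases. It lay in 4 of the 6 sequences, against 33.9% of the 32851 mouse promoters in the same table. Pramel6 held it at bases -146 to -142 and -81 to -77 before the start site, and Gm13083 at -70 to -66. In the pair of near-identical sequences it fell at different places, -20 to -16 in Pramel4 and -238 to -234 in Pramel5, and each copy includes an unmatched base of the alignment above. Pramef12 and Pramel7 held none. TATAAA, the TATA box, was in 0 of the 6 and in 12.4% of all promoters. The E-box CACGTG was in 0 and 6.02%, the STAT site TTCNNNGAA in 0 and 7.02%, and the octamer ATTTGCAT in 0 and 1.60%. The Pramel7 window, at chr2:87492419-87492668 on the minus strand, lies inside the GENCODE span of that gene, chr2:87489087-87497093. It precedes the RefSeq start site only, and the bases before the GENCODE start of Pramel7 were not searched. The Pramel5 window also reaches inside the GENCODE span of its gene, which ends at chr4:144280488. All these matches describe letters in a short window only.

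Pramef12 was the most abundant member by far. This gene (ENSMUSG00000028591), known from work on spermatogonial stem cells, lies at chr4:144391674-144408464 on the minus strand of GRCm38 and has 4 exons in its longest transcript of 2460 nt. It had 12104 counts in replicate 1 and 8077 in replicate 2, or 290 and 194 CPM, with 95% Wilson intervals of 285 to 295 and 190 to 199 CPM. All intervals given cover counting error only. Divided by the length of the longest transcript, the level was 98.5 ± 27.6 CPM per kb (SD, n = 2), higher than in 96.5% of the genes with at least 10 counts on average and an annotated length. Pramef12 alone gave 83.8% of the 14441 counts of all 7 genes in replicate 1 and 71.0% of 11381 in replicate 2.

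Pramef8 was second among the members in both libraries. The gene (ENSMUSG00000046862) lies at chr4:143412426-143421091 on the plus strand, with 5 exons and the longest transcript of the members, 3886 nt. It had 1767 counts (42.4 CPM) in replicate 1 and 2899 counts (69.7 CPM) in replicate 2, so it was higher in the library where Pramef12 was lower. Its level per length was 14.4 ± 4.98 CPM per kb (SD, n = 2). That was above 70.2% of the genes with at least 10 counts on average and an annotated length. The mean of Pramef12 per kb was 6.83-fold that of Pramef8, with both libraries of Pramef12 above both of Pramef8.

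Pramel7 and Pramel6, the members tied to LIF signalling, were low. Pramel7 (ENSMUSG00000025839, chr2:87489087-87497093, minus strand, 3 exons) had 175 and 211 counts, or 4.20 and 5.08 CPM. Pramel6 (ENSMUSG00000025838, chr2:87506565-87510872, plus strand, 4 exons) had 217 and 94 counts, or 5.20 and 2.26 CPM. Of these neighbours on chromosome 2, Pramel6 was the higher in replicate 1 and Pramel7 in replicate 2. Per length, the means were 2.49 ± 0.335 CPM per kb for Pramel7 and 2.10 ± 1.17 CPM per kb for Pramel6 (SD, n = 2). The means differed by 1.19-fold and the libraries overlapped, so their order was not separated beyond the spread. They exceeded 36.1% and 33.7% of the genes with at least 10 counts on average and an annotated length.

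Gm13083, Pramel5 and Pramel4 form the most alike group of members in coding sequence, and were the lowest. Gm13083 (ENSMUSG00000066688, chr4:143615003-143618595, plus strand, 3 exons), named Pramel21 in RefSeq, had 141 counts (3.38 CPM) and 68 counts (1.64 CPM). Its level of 1.02 ± 0.501 CPM per kb overlapped that of Pramel6 across libraries. Within each library Pramel6 was the higher, at 2.92 against 1.37 CPM per kb in replicate 1 and 1.27 against 0.664 in replicate 2. Pramel5 (ENSMUSG00000036749, chr4:144270633-144280488, minus strand, 4 exons) had 36 counts (0.863 CPM) and 32 counts (0.770 CPM), which is 0.380 ± 0.0307 CPM per kb (SD, n = 2). Both libraries of Gm13083 lay above both of Pramel5, and the means were 2.68-fold apart. Pramel4 (ENSMUSG00000073724, chr4:144059126-144069327, plus strand, 4 exons) had 1 count in replicate 1 and 0 in replicate 2. That is no more than the 3 counts that a count of 0 allows, 0.0719 and 0.0722 CPM, and no fold was formed with it.

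**Figure D1:**
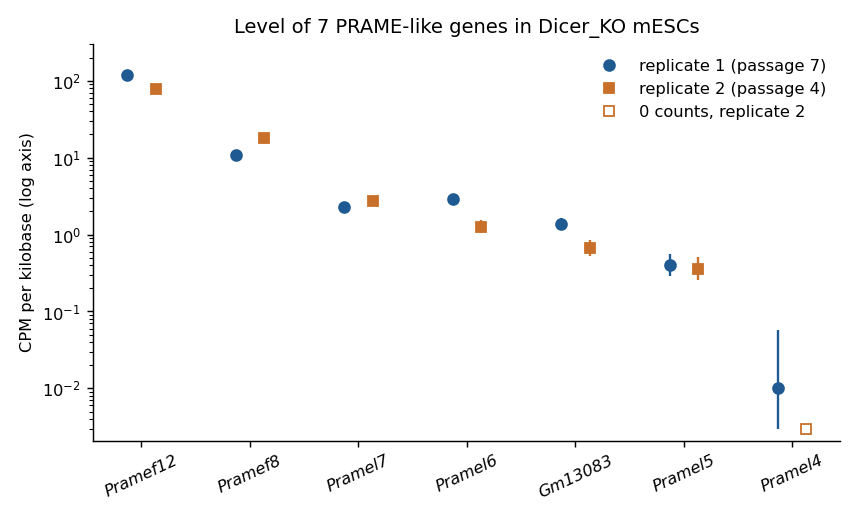
Level of each member in CPM per kb of its longest transcript (log axis), with circles for replicate 1, squares for replicate 2, and vertical lines for the 95% Wilson interval of counting error. Pramef12 stands highest at 118 and 79.0 CPM per kb, Pramel6 and Pramel7 exchange places between the libraries, and Pramel4 has an open square at the lower edge for its 0 counts and an interval that runs past that edge.

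The order of the 7 genes by mean level was the same with the merged length of all exons and with no length correction. Only Pramel7 and Pramel6 changed places between libraries.

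To ask how far the libraries differed for these genes, TMM scaling was applied to replicate 2, and each gene's value in replicate 1 was divided by that in replicate 2 after adding a pseudocount of 1, on a log2 scale. Of all 17788 genes with at least 10 counts on average, 21.4% lay past 2-fold in either direction, 14.2% higher in replicate 1 and 7.14% higher in replicate 2. Of the 6 members with that many counts, 1 did, which is near that background. Pramel4 was too low for a ratio.

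Pramel6 was the member past 2-fold. It was 2.12-fold higher in replicate 1, a log2 ratio of 1.08 with a 95% counting interval of 0.73 to 1.45. Gm13083 was just short of the limit at 1.91-fold and a log2 ratio of 0.92 (0.50 to 1.37). Both intervals include 2-fold, so at these depths neither gene is placed clearly on 1 side of it. Pramef12 was 1.38-fold higher in replicate 1, with a log2 ratio of 0.46 known within a narrow interval (0.42 to 0.50) because of its many counts.

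The opposite direction was taken by a pair of members. Pramef8 was 1.79-fold higher in replicate 2, with a log2 ratio of -0.84 (-0.92 to -0.75). Of all genes with at least 10 counts on average, 9.55% had a lower value. Pramel7 was 1.31-fold higher in replicate 2, at -0.39 (-0.69 to -0.10). Pramel5 differed least, at 0.05 with an interval of -0.68 to 0.78 that its few counts leave wide. Thus 4 members were higher in replicate 1 and 2 in replicate 2, with a median of 0.25 against 0.02 over all genes. Over all genes with at least 10 counts on average, 9129 were higher in replicate 1 and 8659 in replicate 2. The counting interval left out 0 for 5 of the 6 members. The share of all genes with such an interval was not computed, so this count does not set the members apart. Such intervals do not hold the variation between cultures.

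**Figure D2:**
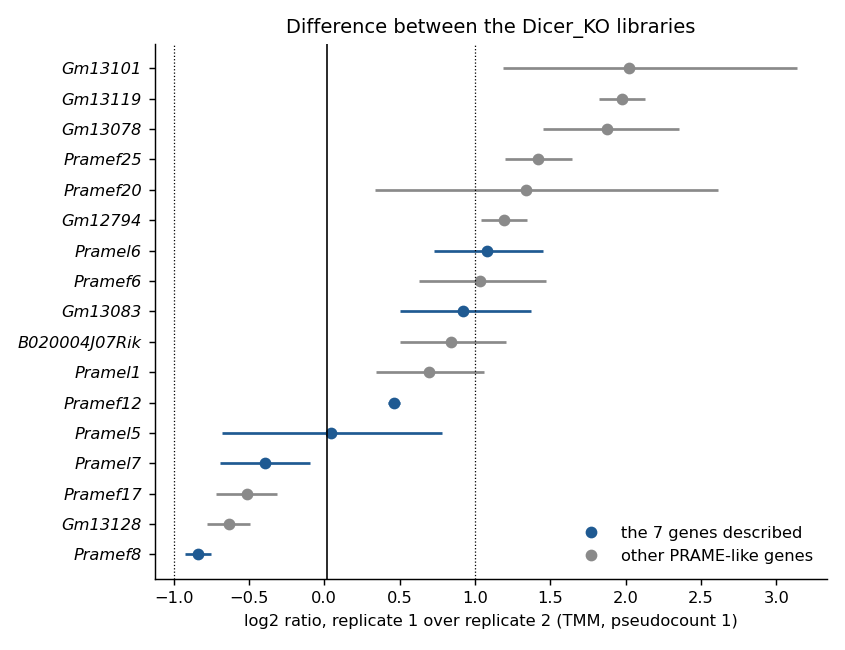
Log2 ratio of replicate 1 over replicate 2 (horizontal axis, TMM-scaled, pseudocount 1) for the 17 PRAME-like genes by symbol with at least 10 counts on average. Members are in blue and other family genes in grey, with lines for 95% counting intervals. The solid line is the median of all genes (0.02) and dotted lines mark 2-fold; members run from -0.84 for Pramef8 to 1.08 for Pramel6, and 7 of the 11 other genes lie past the right dotted line.

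The family around the members was larger. By Ensembl or RefSeq symbol, 39 PRAME-like genes had a row in the counts, the oogenesins Oog1 to Oog4 of oocytes among them. Of these, 17 had at least 10 counts on average, 22 were at or under 3 counts on average, and 13 had 0 in both libraries. The 7 members thus hold 6 of the 17 genes with counts. Among the rest, Gm13119 had the most counts, 1836 and 429, and a mean of 13.0 CPM per kb. Gm12794, with 1240 and 498 counts, was higher per length, at a mean of 14.4 CPM per kb. Per length, both lay above Pramef8 in replicate 1 and below it in replicate 2. By counts, Gm13128 had 670 and 956, Pramef25 had 656 and 225, and Pramef17 had 352 and 462. B020004J07Rik (202 and 103), Pramel1 (182 and 103), Gm13078 (214 and 53) and Pramef6 (157 and 70) lay in the range of Pramel6 and Gm13083.

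The other family genes were mostly higher in replicate 1. Of 11 with at least 10 counts, 9 were higher in replicate 1 and 2 in replicate 2, with a median log2 ratio of 1.19. The 7 past 2-fold were all higher in replicate 1, namely Gm13101 (56 and 12 counts, log2 ratio 2.02), Gm13119 (1.97), Gm13078 (1.87), Pramef25 (1.42), Pramef20 (29 and 10 counts, 1.34), Gm12794 (1.19) and Pramef6 (1.03). Against the 14.2% of all genes past 2-fold in that direction, this is 63.6%, while the members reach 16.7%. No test of that difference was made, since the genes share libraries and, in part, sequence. Gm13128 (-0.63) and Pramef17 (-0.51) went the way of Pramef8. Gm13128 and Pramef17 share 56.6% and 56.4% of their transcript words of 100 bases with each other. Whether their counts are independent is not known, since the handling of reads with several alignments is not given.

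On chromosome 4, 5 members sit within 996 kb, from Pramef8 to Pramef12, and 23 family genes by symbol within 1014 kb. The 2 members with the highest levels lie near opposite ends of this stretch, and Pramel4 between them had 1 count. Pramel6 and Pramel7 lie within 21.8 kb on chromosome 2, in opposite orientation. The nearest expressed gene outside the family before Pramef8 was the pseudogene Anp32b-ps1, at 22.0 kb, with 494 and 564 counts (log2 ratio -0.31, interval -0.49 to -0.14). Beyond Pramef12, at 45.3 kb, Aadacl3 had 21 and 4 counts (2.04, 0.70 to 4.27). On chromosome 2, Gm13736 above Pramel6 had 273 and 248 counts (0.02) and Gm1826 below Pramel7 had 526 and 557 (-0.20), and neither lay past 2-fold. The median over all genes was 0.06 on chromosome 4 and -0.06 on chromosome 2.

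**Figure D3:**
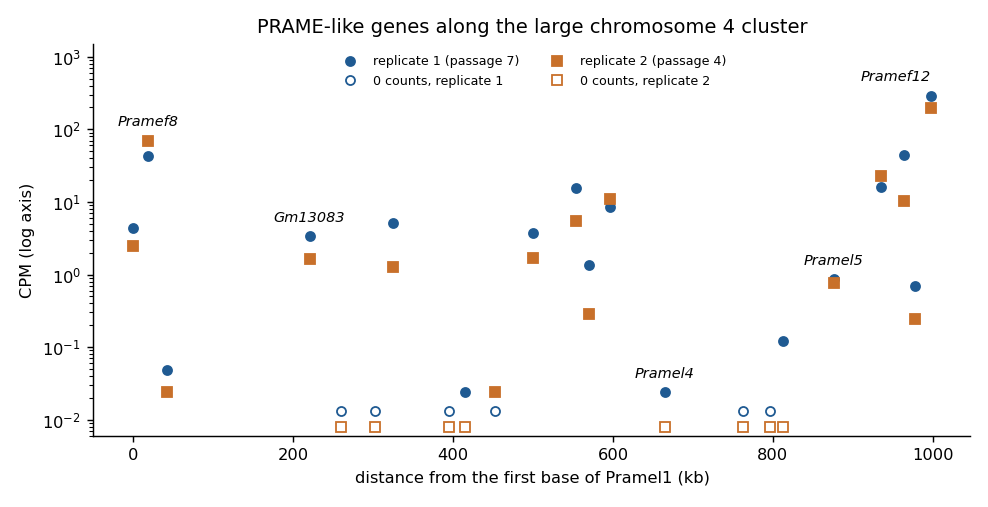
CPM (log axis) of the 23 PRAME-like genes by symbol in the large chromosome 4 cluster, against distance in kb from the first base of Pramel1. Circles stand for replicate 1, squares for replicate 2 and open symbols at the bottom for 0 counts. Homologs found by protein similarity alone are not shown. Pramef12 at the right end stands highest in both libraries, at 290 and 194 CPM. Pramef8 near the left end has 42.4 and 69.7 CPM and is second in replicate 2. Gm13119, at 44.0 CPM, is second in replicate 1. Gm13083, Pramel5 and Pramel4 lie in between, Pramel4 with 1 and 0 counts.

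The antisense gene Pramef12os lies within Pramef12, its exons sharing 0 nt with those of Pramef12. It had 4 and 28 counts, a log2 ratio of -2.65 (-4.90 to -1.41), opposite in sign to that of Pramef12. The labels call the protocol reverse-stranded, and whether the counting used the strand is not given in the sources used here.

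In coding sequence, Pramel4 and Pramel5 were 93.7% identical over the aligned coding bases, and Gm13083 was 86.5% identical to Pramel4 and 86.4% to Pramel5. Every other pair lay between 59.7%, for Pramel6 and Pramel7, and 67.3%, for Gm13083 and Pramef8. The neighbours Pramel6 and Pramel7 were therefore the least alike pair, and the closest relatives, Pramel4 and Pramel5, had 1 and 0 counts against 36 and 32.

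How much of each count could be lost to copies was examined by cutting each longest transcript into words of 100 bases and searching them among transcripts of all other genes. Pramef12, Pramef8, Pramel6 and Pramel7 shared 0% of their words. Pramel5 shared 4.05%, and Gm13083 shared 14.4%, or 340 of 2365 words, with Pramef6. These shares grew with shorter words, to 13.1% and 19.6% at 75 bases and to 27.1% and 25.6% at 50 bases for Pramel5 and Gm13083, so how far either is free of copies depends on the word length. Pramel4 shared 87.1%, or 2004 of 2300 words, mainly with Gm13102, which had 0 counts in both libraries. At 50 bases, Pramel7 shared 0.442%. The count of Pramel4 is uncertain for its shared sequence. Counts of 0 were also tallied for genes with and without an identical transcript in another gene. Of 858 genes whose longest transcript of at least 300 nt equals that of another listed gene, 95.2% had 0 counts in both libraries, against 30.5% of the 34474 genes without such a twin. These sets were not matched for gene type or expression, and the part of copies in the difference was not tested. How reads with several alignments were counted is not given in the sources used here. The 7 family genes on chromosome 5 by symbol, which share 36.7% to 100% of their words with other genes, all had 0 counts in both libraries. By contrast, Gm13128 and Pramef17, which share 56.6% and 56.4%, had 670 and 956 counts and 352 and 462 counts.

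**Figure D4:**
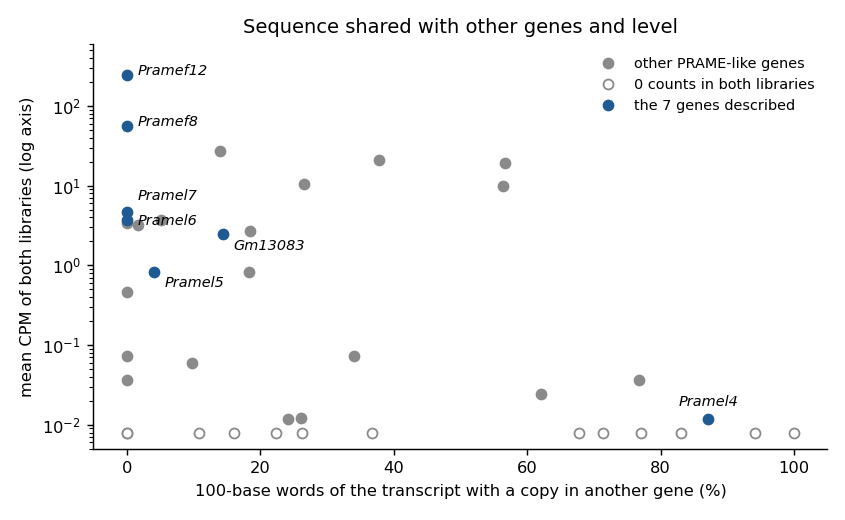
Mean CPM of both libraries (log axis) against the percentage of 100-base transcript words with a copy in another gene, for the 39 PRAME-like genes by symbol, with members in blue and named, and genes at 0 counts in both libraries as open circles at the bottom. Pramef12, Pramef8, Pramel6 and Pramel7 stand at 0% and Pramel4 at 87.1%, where the level is that of 1 count.

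Genes of the pathway around PRAME-like proteins all had at least 10 counts on average. The list held Cul2, the adaptor genes Eloc and Elob, the ligase ring gene Rbx1, Uhrf1, Dnmt1, Stat3, and the LIF receptor genes Lifr and Il6st. Of these 9, 0 lay past 2-fold between the libraries, against 21.4% of all genes, a count too small to set the list apart. Their log2 ratios ran from -0.36 for Uhrf1 to 0.47 for Rbx1 and a median of -0.07. Uhrf1 had 13402 and 15821 counts, Cul2 8457 and 9585, and Stat3 5582 and 3906. Of 12 genes of the 2-cell-like state, a rare state of mESCs that resembles the 2-cell embryo, 11 were found, and 1 lay past 2-fold (9.09%, beside the same 21.4%), Tcstv3 with 429 and 165 counts (log2 ratio 1.25). Their summed level was 222 and 163 CPM and their median log2 ratio was 0.28.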

How the data were processed

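PolyA RNA of 2 Dicer_KO mESC libraries was prepared with the TruSeq kit. Trimming by the authors used Trimmomatic, alignment to mm10 used STAR (2.4.2a) with many hits per read allowed, and featureCounts (1.4.5-p1) gave counts on Ensembl genes, with reads in regions where genes overlap ignored. The deposited files hold these whole-number counts, not normalized. The 43629 identifiers were matched to GENCODE M21 annotation of GRCm38 (42462 found) for symbols and lengths. CPM used the sum of counts on genes (41710122 and 41566184). Ratios used TMM factors (edgeR 4.0.16, R 4.3.3) and a pseudocount of 1, for genes whose counts averaged 10 or more, with exact conditional binomial 95% intervals (scipy 1.17.1). The calculation was tested on simulated counts with planted changes. That checks the code only, since the variation between these libraries was not simulated. Both libraries form 1 group with no control, so no test between groups was run, and the n of 2 measures the spread between these libraries only. Homologs were taken by symbols starting with Pramel or Pramef or Oog1 to Oog4, and proteins translated from GENCODE (BLAST 2.17.0) served as an alternative. Transcript words were matched in the sense direction, and copies outside annotated transcripts were not searched. Coding sequences were aligned with Biopython 1.88. The members, gene lists and naming rule were chosen with earlier results of these data known. Named were all members, Dicer1, the 10 homologs with the highest counts and any past 2-fold, the nearest expressed gene on each side of each cluster, and the listed pathway, 2-cell and marker genes. Pramef12os, Gm7978, Prame and the further genes found by protein similarity were named after their values were seen. Alternatives were other scalings, pseudocounts, folds, count minimums, lengths, word lengths and symbol sources. The words without a copy as a length, and homologs by protein similarity, were added after seeing the data.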

Additional observations from a re-analysis of the deposited data

How the results depend on the processing

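No paired analysis was possible because the libraries form 1 group and no second group shares their replicate numbers. Of 101 alternative values, 18 moved and 83 moved by less than the limit. The limit was the spread of the reported value or, for counts of genes, 1.5 times. A change of sign is possible only for the log2 ratios. It was looked for only past 2-fold, which is Pramel6 alone, and Pramel6 kept its sign. The count of members past 2-fold, 1 as reported, was 2 with total counts and 2 with raw counts as the scale (Gm13083 joining), 3 at 1.5-fold and 0 at 4-fold. Those scales moved the median of all genes from 0.02 to 0.14 on the log2 scale, and relative to that median 1 member was past 2-fold under each of the 4 scalings tried. PRAME-like genes with at least 10 counts numbered 17 as reported and 10 by GENCODE symbols alone; a minimum mean of 1 count gave 23, one of 50 gave 14, and leaving out either library gave 17. With protein similarity added, an alternative chosen after seeing the data, 21 were found. No ratio can be formed with a library left out, and with 2 libraries a mean then always moves by less than the SD, which says nothing of stability. Depth limits Pramel4 and Pramel5 most.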

Other observations

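Protein similarity to the members (E-value at most 1e-20 over at least 60% of a member) gave 32 further genes beyond those with PRAME-like symbols, of which 4 had at least 10 counts on average. Lrrc14, a relative of PRAME, had 742 and 461 counts in replicates 1 and 2. Gm12800, which shares transcript words with the PRAME-like gene Gm12794, had 940 and 335. BC080695 had 278 and 81. BC061212 had 26 counts in replicate 1 and 0 in replicate 2, and the PRAME-like gene Gm7978, whose words of 100 bases all have a copy in another gene, had 0 in both. Prame itself, the namesake of the family, had 1 and 0. All 4 of the genes with counts were higher in replicate 1, and 3 were past 2-fold, beside 14.2% of all genes in that direction. Among the 3, BC061212 reached the mean of 10 counts through replicate 1 alone, so its direction was set by that minimum. These genes were named after their values were seen, and no test was made.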
